A study of Homo sapiens with 8 samples.

Results

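The BCL2 and MYC oncogene loci were examined in ChIP-seq island lists of the untreated cell lines HT and SUDHL6, both established from diffuse large B cell lymphoma. The members were all islands that touched either gene or its 50 kb flanks by at least 1 bp on hg19, and 29 of the 58757 islands in the 6 lists met this rule. Of these, 22 lay at BCL2 (chromosome 18 from 60790579 to 60986613, a window of 296 kb with its flanks) and 7 at MYC (chromosome 8 from 128748315 to 128753680, a window of 105.4 kb). The antibodies were against trimethylated lysine 4 of histone H3 (H3K4me3), trimethylated lysine 27 of histone H3 (H3K27me3) and EZH2. Each line and antibody had 1 library and 1 island list, so no value has a replicate and no test between the lines could be made. An island missing from a list is not absence of the mark, and the sources used here do not give the read depth. The labels give no genotype. As background, SUDHL6 is known to carry an activating EZH2 mutation and a translocation of BCL2 to the immunoglobulin heavy chain locus. Neither was assessed in these lists, in which islands are placed on the reference chromosomes, and cell type markers were not checked because gene positions on hg19 were not used here beyond these genes.

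BCL2 encodes the founding anti-apoptotic protein of its family, which keeps mitochondria from releasing cytochrome c. It is held low in normal germinal centre B cells and is recurrently placed under immunoglobulin enhancers in B cell lymphoma. MYC encodes a transcription factor that drives growth and proliferation, and its locus is another recurrent translocation target in B cell lymphoma. EZH2 is the methyltransferase of Polycomb repressive complex 2 and places H3K27me3 over repressed genes, while H3K4me3 marks active promoters. A promoter that carries both marks is called bivalent.

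The sequence at the BCL2 start is rich in CG dinucleotides, the kind of sequence at which both H3K4me3 and Polycomb are commonly found. RefSeq's table for GRCh38.p14 held a promoter window for BCL2 and not for MYC. The BCL2 window, 300 bases from 250 before to 50 after the annotated start, held 31 CG dinucleotides, against a median of 14 over the 35116 promoters in the table, and 20.7% of them held as many or more. Its GC content was 70.7%, with 18.8% of promoters at or above that. The 30 bases with the most CG (7, in capitals) are shown as the part of the window that carries this feature most densely, on the minus strand of GRCh38.p14 at chr18:63319969-63319998. This position belongs to another build than the islands and was not converted.
BCL2: CGgcCGtcagCGctCGgagCGggctgCGCG

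The lines differed at the BCL2 start site, where SUDHL6 had a single wide H3K4me3 island and HT had a narrow H3K4me3 island together with H3K27me3 and EZH2. BCL2 is read towards lower coordinates, so its start site on hg19 is taken as 60986613. The annotated start of the promoter window above is on another build and was not matched to this position. Whether an island holds the start site therefore depends on the start used. In SUDHL6 the H3K4me3 island ran from 60983101 to 60989850, a width of 6.75 kb that reached from 3.24 kb upstream of the start site to 3.51 kb into the gene. In HT it ran from 60986701 to 60987900, a width of 1.2 kb that began 88 bp upstream of the start site. That distance is less than the 150 bp step on which islands are placed, so whether the island reached the start site is not resolved. The HT island lay wholly inside the SUDHL6 island and made up 17.8% of its length.

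Both islands carry the score the authors gave them, a whole number of unstated meaning that ranks islands only within a list. The SUDHL6 island scored 330 and ranked 147 of 13736 by score, in the top 1.07% of its list, and in the top 1.92% by width. The HT island scored 24 and ranked 10028 of 10914 by score and 9013 by width. The same promoter thus stood near the head of one list and near the foot of the other. By score per kb the contrast was smaller: the SUDHL6 island had 48.9 per kb, in the top 19.1% of its list, and the HT island had 20 per kb, at rank 9136.

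Islands of the other 2 antibodies filled the BCL2 start in HT. An H3K27me3 island from 60984301 to 60986850 (2.55 kb, score 69) held the start site, and a second from 60987901 to 60989100 (1.2 kb, score 25) began at the base after the HT H3K4me3 island ended. The HT H3K4me3 island thus lay between these H3K27me3 islands, shared 150 bp with the first and had 12.5% of its length under H3K27me3. An EZH2 island from 60985951 to 60987150 (1.2 kb) also held the start site, with 75% of its length under HT H3K27me3 and 37.5% under HT H3K4me3. Its score of 30 ranked 2423 of 2523 and its width ranked 2491, so it was among the lowest by score and the narrowest of its list. Its score per kb of 25 ranked 124, a value that rests on its small width and does not show strong EZH2. Both H3K27me3 islands and the EZH2 island lay wholly inside the span of the SUDHL6 H3K4me3 island.

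**Figure D1:**
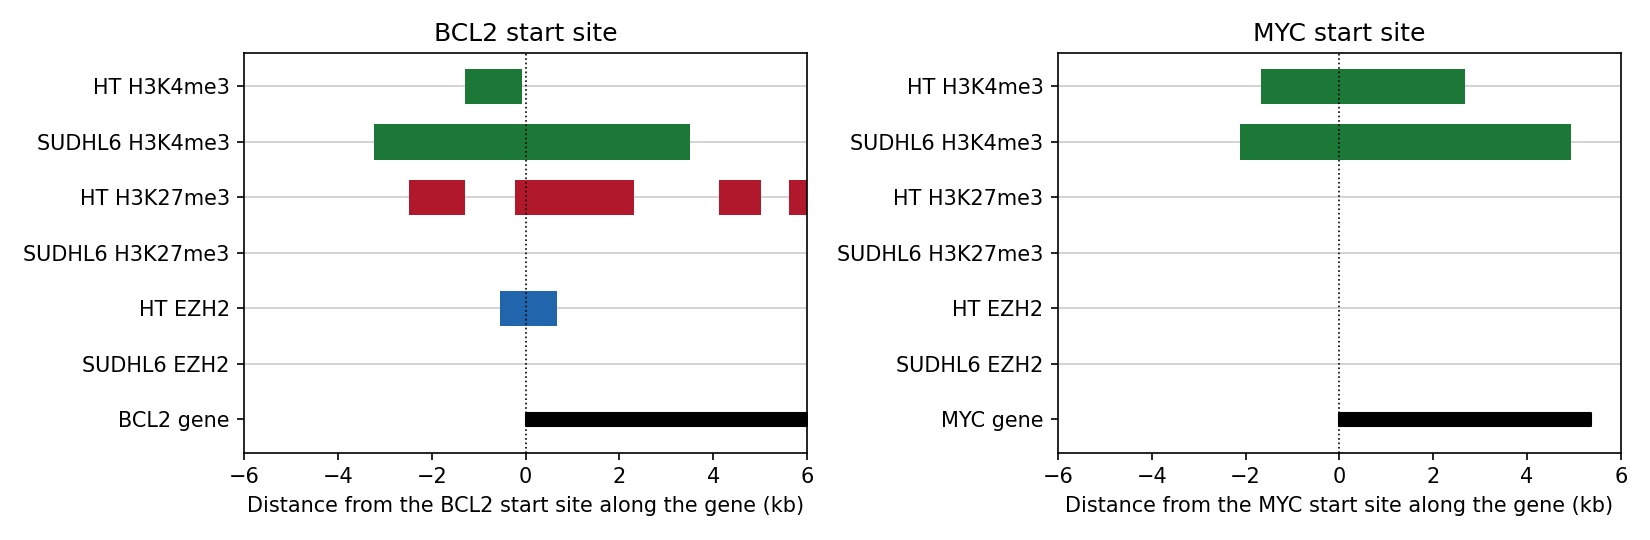
Islands within 6 kb of the start sites of BCL2 (left) and MYC (right), by distance along the gene in kb on the x axis and by line and antibody on the y axis. Bars are islands, the black bar is the gene and the dotted line its start site. At BCL2 the 6.75 kb SUDHL6 H3K4me3 island spans the HT H3K4me3 and EZH2 islands and the HT H3K27me3 islands nearest the start site. HT H3K27me3 farther into the gene lies outside it. At MYC the islands shown are H3K4me3 alone.

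The combination seen at BCL2 was uncommon in the lists. H3K27me3 of the same line overlapped 3.10% of all HT H3K4me3 islands (exact Clopper-Pearson 95% interval 2.78 to 3.44%), EZH2 overlapped 8.05%, and both overlapped 1.46%. These intervals cover counting error only. Of the 13736 SUDHL6 H3K4me3 islands, 129 (0.939%) overlapped HT islands of all 3 antibodies. Of the 129, 89 (0.648% of the 13736) had neither H3K27me3 nor EZH2 in SUDHL6. Lacking both is the usual state, since SUDHL6 H3K27me3 overlapped 2.35% and SUDHL6 EZH2 1.89% of SUDHL6 H3K4me3 islands. In 20 of the 89 (0.146% of the 13736) the SUDHL6 island was also at least 2 times as wide as the HT H3K4me3. BCL2 is 1 of those 20. These classes were chosen after the BCL2 islands were seen and describe how many others look alike.

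The width difference at the BCL2 start was also far out among H3K4me3 islands present in both lines. The SUDHL6 island was 5.62 times as wide as the HT island. Over all 8099 SUDHL6 islands that overlapped HT H3K4me3, the median ratio was 1, the central 90% ran from 0.393 to 2.5, and 25 (0.309%) had a ratio as high as BCL2 or higher. A ratio of at least 2 was reached by 10.7% of these pairs, and 10.9% were at least 2 times as wide in HT. By this measure neither line had generally wider islands where both had one. Widths of HT islands were summed where a SUDHL6 island met more than 1, and those of SUDHL6 islands were not.

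Nearby H3K4me3 islands were closer in width. Of the 6 other overlapping pairs within 1 Mb of BCL2, the ratio ran from 0.771 to 1.23 and 1 was wider in SUDHL6. In 2 of these pairs, SUDHL6 islands of 4050 and 4200 bp share 1 HT island, and each was set against its whole 5250 bp. Each was narrower than that HT island, but together they were wider. In the upstream flank, an island from 61033501 to 61035450 in HT (1.95 kb, score 93) matched one from 61033051 to 61035450 in SUDHL6 (2.4 kb, score 51), a ratio of 1.23. RefSeq's order of genes places KDSR, which encodes an enzyme of sphingolipid synthesis, on that side of BCL2, and the island was not assigned to a gene. Within the HT list the BCL2 start island had 0.258 times the score of this neighbour. Within the SUDHL6 list it had 6.47 times the neighbour's score. Copy number was not measured, and the width ratios of neighbouring pairs do not stand in for it.

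**Figure D2:**
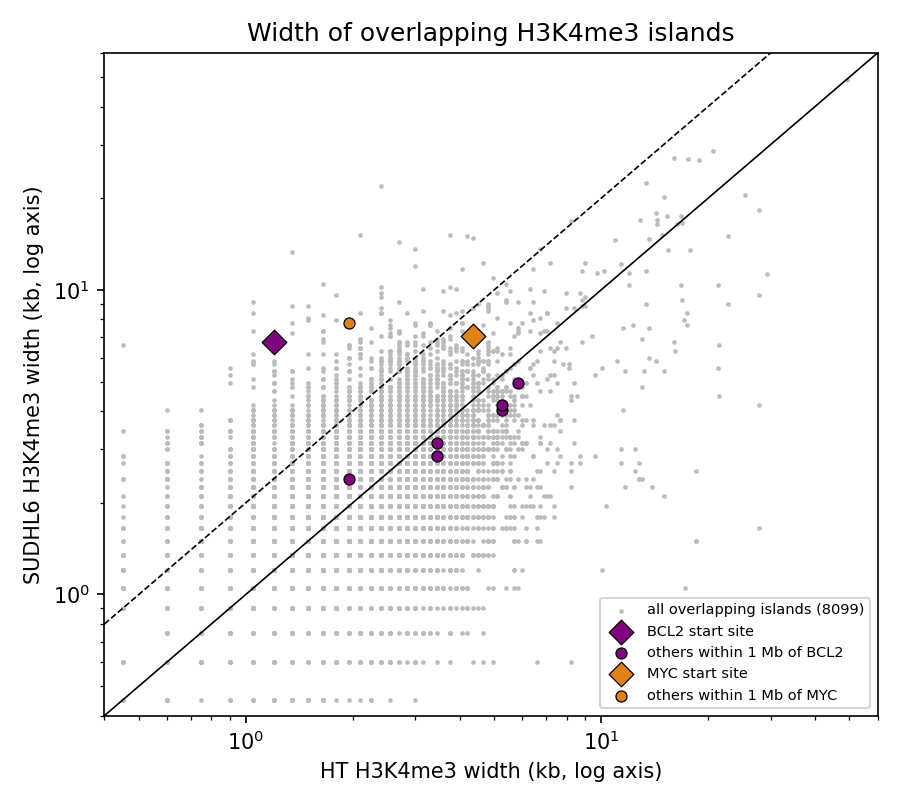
Width in kb of each SUDHL6 H3K4me3 island that overlapped HT H3K4me3 (y axis, log) against the summed width of the HT islands it met (x axis, log). The solid line is equal width and the dashed line 2 times as wide in SUDHL6. SUDHL6 islands that share an HT island are each drawn against its whole width. The BCL2 start site lies above the dashed line at a ratio of 5.62, its 6 neighbours within 1 Mb lie near the solid line, and MYC lies between the lines at 1.62.

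H3K27me3 in HT was not limited to the BCL2 start but ran in pieces over the gene. HT had 15 H3K27me3 islands in the window, covering 37.8 kb or 12.8% of its bases, and SUDHL6 had 0. Of the 15, 12 touched the gene and covered 33.36 kb, or 17.0% of it. The islands were 900 to 10350 bp wide with a median of 2250 bp, and 4 were wider than the list's median of 2550 bp. Scores ran from 19 to 257, and 6 of the 15 were above the list's median of 49. Most of these islands were thus ordinary or small for HT, though 1 was in the top 1.88% of the list by width. Their number was high, but it depends on where neighbouring islands are split. Gaps between them went down to 0.6 kb, and joining islands within 5 kb left 9.

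The islands formed 3 groups along the gene. At the start, 4 islands lay between 60978601 and 60989100, from 2.49 kb upstream to 8.01 kb into the gene. In the next group, 4 islands lay between 60942301 and 60958350. After a stretch of 66 kb without an island, others followed at 60873301 to 60876300 (3 kb, score 58) and 60850351 to 60851550 (1.2 kb, score 27). The last group, of 3 islands, lay near the end of the gene from 60807301 to 60829800. The remaining 2 of the 15 lay in the downstream flank, from 60756001 to 60756900 (0.9 kb, score 19) and from 60773401 to 60775500 (2.1 kb, score 36).

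The widest H3K27me3 island of the locus was in that last group, 156.8 kb from the start site. It ran from 60819451 to 60829800, was 10.35 kb wide and scored 257, in the top 1.88% of the HT list by width and the top 2.05% by score. An HT EZH2 island from 60824551 to 60829800 (5.25 kb, score 81) covered 50.7% of it and ended at the same base. This EZH2 island ranked 527 of 2523 by score and lay wholly under H3K27me3. Exons and introns were not assigned, because no hg19 annotation was used here.

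EZH2 in HT was thus found at the BCL2 start and at the widest H3K27me3 island, and at neither place in SUDHL6. Over the whole lists, 11.5% of HT EZH2 and 21.2% of HT H3K27me3 islands overlapped a SUDHL6 island of the same antibody. Lacking a SUDHL6 partner is thus the usual state for a single island of either list. Both HT EZH2 islands overlapped HT H3K27me3, as did 48.9% of all HT EZH2 islands. Seen from H3K27me3, 2 of the 15 islands held EZH2, against 7.77% of the HT list. The other 13 had no EZH2 island. SUDHL6 had 0 EZH2 islands in the window, and its nearest lay 390 kb from the gene, from 60398851 to 60400950.

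**Figure D3:**
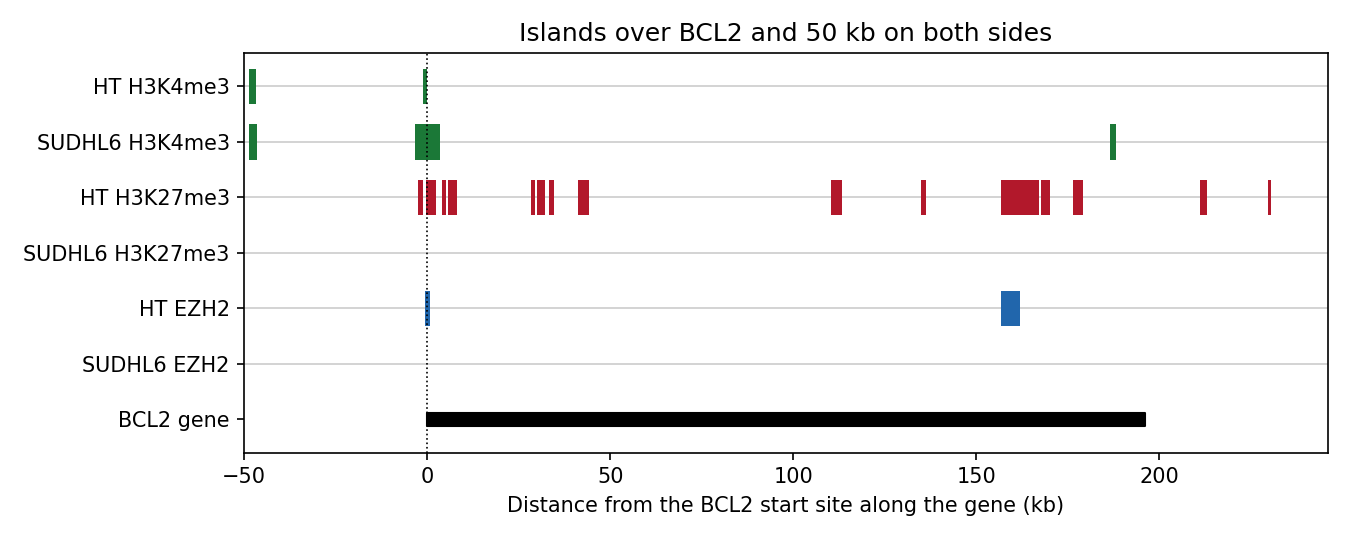
Islands over BCL2 and 50 kb on both sides, by distance along the gene from its start site in kb (x axis) and by line and antibody (y axis). Bars are islands and the black bar is the gene. HT H3K27me3 has 15 islands and HT EZH2 has 2, while both SUDHL6 rows are empty and SUDHL6 H3K4me3 has its wide island at the start.

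The number of HT H3K27me3 islands at BCL2 was set against windows of the same length laid end to end over each chromosome, keeping the 6140 with an H3K4me3 island in either line. The median window held 1 HT H3K27me3 island, and 0.977% held 15 or more. By covered length the locus was less far out, with 3.27% of windows at or above 37.8 kb. The lack of SUDHL6 H3K27me3 was common, since 62.9% of windows had 0 islands. An excess of 15 or more islands in HT over SUDHL6 was found in 11 windows (0.179%). For EZH2, 7.80% of windows held 2 or more HT islands and 86.0% held 0 SUDHL6 islands. The windows were chosen after the counts were known and are a description.

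The HT H3K27me3 islands stopped close to the gene. Within 500 kb of BCL2 the HT list held 16 H3K27me3 islands, 15 of which were those in the window. The remaining one lay 161 kb upstream, from 61148101 to 61149300 (1.2 kb, score 21). SUDHL6 had 2 H3K27me3 islands within 500 kb, 1 on each side and both 117 kb from the gene. That on the downstream side ran from 60667651 to 60673950 (6.3 kb, score 123) and that on the upstream side from 61103551 to 61106700 (3.15 kb, score 40). The SUDHL6 islands thus lay outside the stretch marked in HT.

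**Figure D4:**
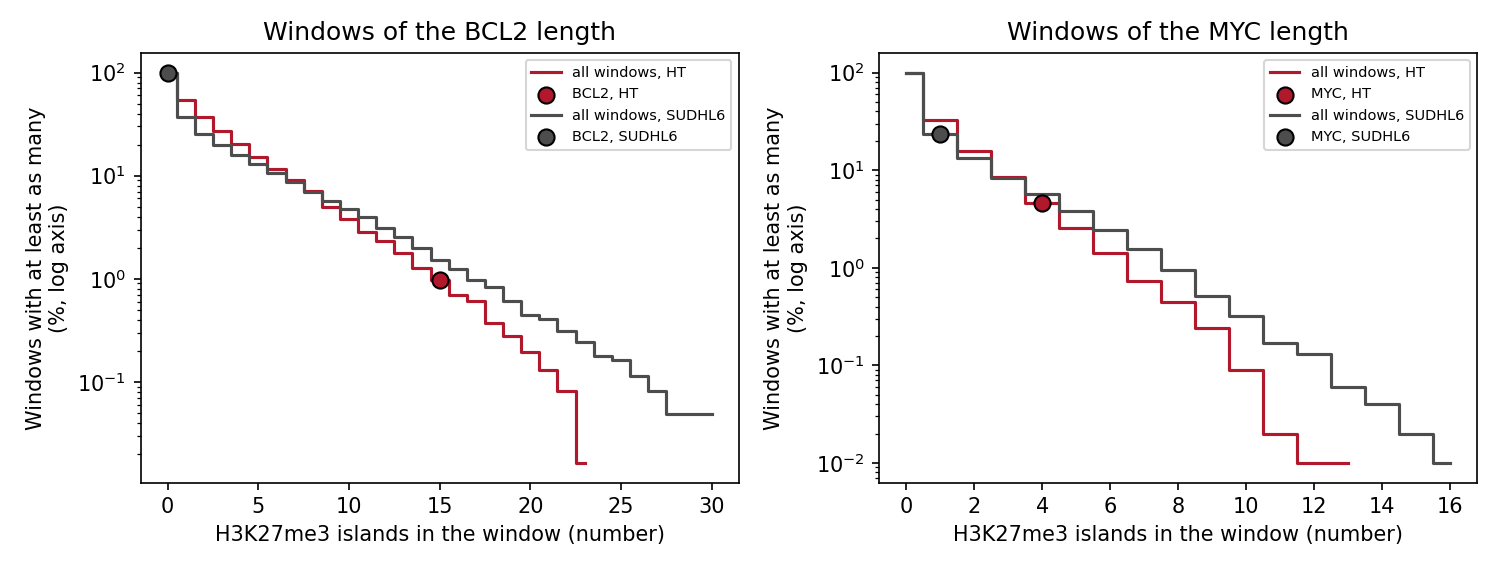
Share of windows (y axis, %, log) with at least a given number of H3K27me3 islands (x axis), for windows of the BCL2 length (left) and the MYC length (right) that held H3K4me3 in either line. Lines are all windows of each list and circles the loci themselves. BCL2 in HT, with 15 islands, sits where 0.977% of windows remain, and MYC in HT, with 4, where 4.56% remain.

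A weak H3K4me3 island near the BCL2 end was found in SUDHL6. It ran from 60798451 to 60800100 (1.65 kb), 186.5 kb along the gene from the start site, scored 27 and ranked 11657 of 13736. HT had no H3K4me3 island there, and the nearest HT H3K27me3 island began at 60807301. An overlap with HT H3K4me3 was found for the other 2 of the 3 SUDHL6 islands in the window, against 59.0% of the SUDHL6 list, and for both HT islands in the other direction, against 74.4% of the HT list. With so few islands these counts are near the shares of the lists.

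MYC differed from BCL2 in that its start carried strong H3K4me3 and no Polycomb island in either line. MYC is read towards higher coordinates, with its start site at 128748315. In HT the H3K4me3 island ran from 128746651 to 128751000 (4.35 kb, score 197), from 1.66 kb upstream of the start site to 2.69 kb into the gene. In SUDHL6 it ran from 128746201 to 128753250 (7.05 kb, score 514), from 2.11 kb upstream to 4.93 kb into the gene. The HT island lay inside the SUDHL6 island, and the islands covered 50.1% and 92.0% of the gene. RefSeq's order of genes places the long non-coding RNA gene CASC11 next to MYC on the upstream side, so the mark there cannot be credited to MYC alone.

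Both MYC islands stood near the head of their lists. The HT island ranked 304 of 10914 by score (top 2.79%) and 595 by width (top 5.45%). The SUDHL6 island ranked 32 of 13736 by score (top 0.233%) and 239 by width (top 1.74%). By score per kb they were at 45.3, in the top 22.4%, and at 72.9, in the top 2.68%. The SUDHL6 island was 1.62 times as wide, below the limit of 2 that 10.7% of pairs reached, and 17.4% of pairs had a ratio as high or higher.

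The next H3K4me3 island after MYC showed a larger width difference than MYC itself. It lay just outside the 50 kb flank, from 128806501 to 128808450 in HT (1.95 kb, score 86) and from 128805301 to 128813100 in SUDHL6 (7.8 kb, score 409), 52.8 and 51.6 kb from the gene. The ratio of widths was 4, and 1.32% of all pairs were as high or higher. The SUDHL6 island ranked 65 of its list by score and the HT island 4066. The next gene in RefSeq's order on that side is the long non-coding RNA gene PVT1. Within HT the MYC start island scored 2.29 times this neighbour, and within SUDHL6 1.26 times. This is the 1 other overlapping pair within 1 Mb of MYC, and copy number was not measured.

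H3K27me3 lay in the flanks of MYC and not over the gene. HT had 4 islands in the window, covering 13.05 kb or 12.4% of its bases, and SUDHL6 had 1, covering 2.85 kb or 2.70%. Upstream, HT had islands from 128704501 to 128707950 (3.45 kb, score 74), from 128720851 to 128726250 (5.4 kb, score 90) and from 128727001 to 128728350 (1.35 kb, score 28). These covered 20.4% of the upstream flank, where SUDHL6 had 0 islands, and the nearest of them ended 19.96 kb before the start site. By rank in the HT list they were at 4717, 3323 and 13656 of 16919, so none was among its strongest.

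Downstream of MYC both lines had H3K27me3 at nearly the same place. The HT island ran from 128769751 to 128772600 and the SUDHL6 island from 128770201 to 128773050. Both were 2.85 kb wide, each covered 84.2% of the other, and they scored 64 and 60, at rank 5894 of 16919 and 6404 of 13159. They began 21.44 and 21.89 kb from the start site. This was the 1 HT island of 4 with a SUDHL6 partner (21.2% in the HT list), and the 1 SUDHL6 island with an HT partner (27.8% in the SUDHL6 list).

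**Figure D5:**
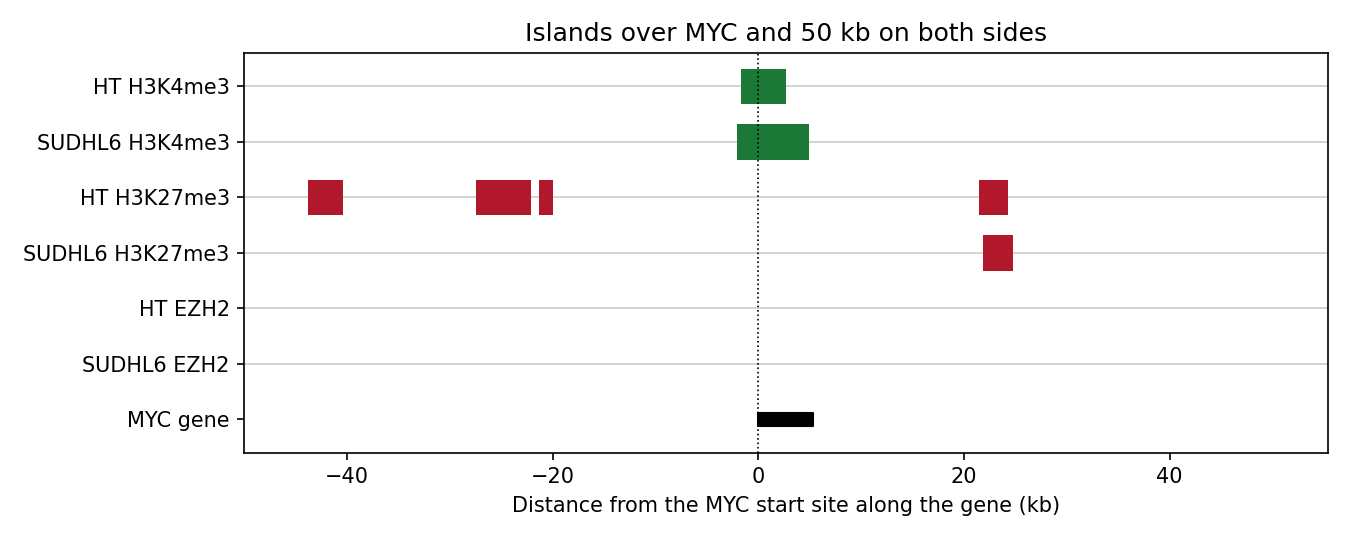
Islands over MYC and 50 kb on both sides, by distance along the gene from its start site in kb (x axis) and by line and antibody (y axis). Bars are islands and the black bar is the gene. H3K4me3 covers the start in both lines, 3 HT H3K27me3 islands lie upstream, both lines share one downstream, and both EZH2 rows are empty.

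No EZH2 island lay near MYC in either line. Within 500 kb both lists had 0, and the nearest lay 2230 kb away in HT and 3010 kb away in SUDHL6. All 5 H3K27me3 islands at MYC were thus without an EZH2 island. Over the whole lists, EZH2 overlapped 7.77% of HT and 9.45% of SUDHL6 H3K27me3 islands, so its lack at these islands is the usual state. Among windows of the MYC length with H3K4me3 in either line (10031), 83.0% had 0 HT and 92.3% had 0 SUDHL6 EZH2 islands. For H3K27me3, 4.56% of these windows held 4 or more HT islands and 23.6% held 1 or more SUDHL6 islands. The excess of 3 in HT was reached by 3.99%.

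H3K27me3 of HT went on upstream of MYC beyond the flank. Within 500 kb HT had 15 islands, 12 upstream (39.9 kb) and 3 downstream (12.15 kb), and SUDHL6 had 3, of which 2 were upstream (7.05 kb). The first HT island beyond the 50 kb limit ran from 128692051 to 128693850 (1.8 kb, score 31), 54.5 kb from the gene, and the farthest inside it ended 40.37 kb from the start site. The first SUDHL6 island beyond the limit ran from 128680801 to 128684700 (3.9 kb, score 79), 63.6 kb from the gene. The MYC window thus held 4 of the 15 HT islands within 500 kb, whereas the BCL2 window held 15 of 16. The windows differ in length (105.4 kb for MYC and 296 kb for BCL2), so these shares are not directly comparable. HT H3K27me3 covered 12.4% of the bases of the MYC window and 12.8% of the BCL2 window. How common such counts are within 500 kb of other genes was not measured.

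Set side by side, both genes had more covered H3K4me3 in SUDHL6 and more H3K27me3 in HT. The whole lists went the same way for both marks. Over them H3K4me3 covered 25.5 Mb in HT and 33 Mb in SUDHL6, and H3K27me3 covered 54.4 and 51.3 Mb. The places differed between the genes. At BCL2 the HT Polycomb islands lay on the start site and over the gene. The wide SUDHL6 H3K4me3 island covered the start without a SUDHL6 Polycomb island, and a weak one lay near the end of the gene. At MYC the start was free of H3K27me3 and EZH2 islands in both lines and the difference in H3K27me3 lay at least 19.96 kb away. An H3K27me3 island of the same line lay within 50 kb of 33.8% of HT and 26.4% of SUDHL6 H3K4me3 islands. By this measure the start islands of BCL2 in HT and of MYC in both lines were among those with one nearby, and that of BCL2 in SUDHL6 was not.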

How the data were processed

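For each of the 6 libraries the authors deposited the islands found in it, each with its position and a score. The submitters' processing notes name SICER and the build hg19. Per the file names, the window was 150 bp, the gap 450 bp and the FDR limit 1E-7. All 58757 islands lay on the 150 bp grid, which limits the precision of a width. The aligner, read filters, control and depth are not stated in those sources, and the 2 input samples were not used here.

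Positions are counted from 1. Islands within 50 kb of a gene, their ranks, overlaps (at least 1 bp) and covered lengths were computed with Python 3.11.15, numpy 2.4.6 and scipy 1.17.1, and drawn with matplotlib 3.10.9. These steps were checked on simulated islands, and 100% were classed rightly for each of the 3 list sizes simulated. Limits for a ratio of widths (2) and the windows of equal length were chosen after the data were seen. All islands near the genes are named by rule. Counts of promoters of related genes were planned but not run for want of hg19 gene positions. The members, lists and measures were chosen with earlier results of these data known. Alternatives were other reaches, stronger islands, joined islands, stricter overlap, lists of equal number and other rankings.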

Additional observations from a re-analysis of the deposited data

Results flagged for a closer look

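At both genes the antibodies differed between the lines in opposite directions. This difference between antibodies was not tested, since each list is 1 library. The whole lists had the same directions, with H3K4me3 over 25.5 Mb in HT and 33 Mb in SUDHL6. H3K27me3 covered 54.4 and 51.3 Mb there, and EZH2 11 and 8.77 Mb. At BCL2 the covered length in HT minus that in SUDHL6 was -7.65 kb for H3K4me3 (3.15 and 10.8 kb), 37.8 kb for H3K27me3 (37.8 and 0 kb) and 6.45 kb for EZH2 (6.45 and 0 kb). At MYC it was -2.7 kb for H3K4me3 (4.35 and 7.05 kb) and 10.2 kb for H3K27me3 (13.05 and 2.85 kb), with no EZH2 island in either line.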

How the results depend on the processing

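The lines kept their order of covered length near both genes, for each antibody present, under all settings run. Counts and lengths are called moved past 1.5 times, shares and ranks outside their 95% interval. For ranks this interval is only a working limit, because the place of an island in a complete list has no counting error. The cause of each move was not tested beyond what the setting itself removes or adds. With the 50% of islands of highest score, BCL2 kept 1 island (1.95 kb) of HT H3K4me3, 1 (6.75 kb) of SUDHL6 H3K4me3, 6 (24.15 kb) of HT H3K27me3 and 1 of HT EZH2, and the HT start-site islands of H3K4me3 and EZH2 were lost. Joining islands within 5 kb left 9 HT H3K27me3 islands at BCL2. A reach of 25 kb left 1 HT H3K4me3 island (1.2 kb) at BCL2 and 7.136 kb of HT H3K27me3 at MYC. A reach of 100 kb gave MYC 2 H3K4me3 islands in each line (14.85 kb in SUDHL6) and 2 SUDHL6 H3K27me3 islands (6.75 kb). SUDHL6 H3K27me3 and EZH2 at BCL2 were at 0 islands under every planned setting.

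A reach of 500 kb, added after the data were seen, gave BCL2 5 and 8 H3K4me3 islands in HT and SUDHL6 (14.1 and 24.9 kb), 2 SUDHL6 H3K27me3 islands (9.45 kb), 10.5 kb of HT EZH2 and 1 SUDHL6 EZH2 island (2.1 kb). It gave MYC 2 H3K4me3 islands in each line (14.85 kb in SUDHL6), 15 HT (52.05 kb) and 3 SUDHL6 (9.9 kb) H3K27me3 islands.

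The share of the list at or above the start-site H3K4me3 island, by width, by score per kb and by score with islands joined, was 82.6, 83.7 and 92.4% for BCL2 in HT and 1.92, 19.1 and 1.65% in SUDHL6. For MYC it was 5.45, 22.4 and 3.92% in HT and 1.74, 2.68 and 0.486% in SUDHL6. With islands joined, the width ratios at the start sites stayed at 5.62 for BCL2 and 1.62 for MYC. With the windows moved by part of their length, both window shares stayed within their intervals. Both settings were added after the data were seen.

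With an overlap of 50% of the island, 1 of the 3 SUDHL6 H3K4me3 islands at BCL2 had an HT partner. Over whole lists the shares with a partner were then 66.3 and 51.5% for H3K4me3, 14.5 and 18.8% for H3K27me3 and 9.43 and 14.3% for EZH2 in HT and SUDHL6. With lists of equal number they were 71.4 and 71.1%, 25.2 and 26.3%, and 16.0 and 16.3%. The share of H3K4me3 islands with H3K27me3 within 25 and 100 kb was 20.6 and 53.1% in HT and 17.6 and 38.9% in SUDHL6, and with EZH2 16.7 and 34.9%, and 6.01 and 16.4%. No paired analysis was possible because each line and antibody had 1 library and no test was made.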

Other observations

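Over the whole of chromosome 18, H3K27me3 covered 0.946 Mb in HT and 0.806 Mb in SUDHL6, and H3K4me3 covered 0.407 and 0.555 Mb, so the chromosome went the same way as BCL2 for both marks but by far less. The EZH2 length there was 0.154 Mb in HT (44 islands) and 0.0588 Mb in SUDHL6 (14 islands). On chromosome 8, H3K27me3 covered 1.97 and 1.59 Mb, H3K4me3 0.873 and 1.45 Mb, and EZH2 0.292 and 0.358 Mb, in 80 and 64 islands, so EZH2 had more islands in HT and more covered length in SUDHL6. For H3K4me3 the MYC window (4.35 kb in HT and 7.05 kb in SUDHL6) went the same way as chromosome 8 and by about as much. For H3K27me3 the MYC window (13.05 and 2.85 kb) also went the same way, but by far more. The log2 ratio of H3K4me3 length, HT over SUDHL6, relative to that over all autosomes was -0.08 on chromosome 18 and -0.36 on chromosome 8.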
